A study of Mus musculus with 12 samples.

Results

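The superoxide dismutases Sod1, Sod2 and Sod3, the copper chaperone Ccs and the peroxiredoxins Prdx1 to Prdx6 were followed in the hippocampus of 2 mouse lines, each with its own deletion in Shank2, which encodes a scaffold of excitatory synapses. The members were matched by their Ensembl gene identifiers. They were 10 of the 24590 genes listed in at least 1 of 12 libraries, and all 10 passed the filter on low values. Ccs had been picked because its values were higher in the knockout mice of 1 line (the exon 7 line, below), so that difference is given as a description without a test. The other 9 are the named genes of the same enzyme families.

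Each library came from the hippocampi of 1 mouse. The exon 6-7 line carries a deletion of exons 6 and 7 of Shank2 and gave 3 knockout and 3 wild-type mice, and the exon 7 line carries a deletion of exon 7 and gave 3 knockout and 3 wild-type mice. All 12 are labelled as strain mixed C57BL/6J and C57BLl/6N. No treatment is named for any group, and the wild-type controls carry no deletion. The protocol text gives male littermates of 8 to 15 weeks for the behavioural experiments and does not say whether the sequenced mice were among them. Each mouse has its own number, so the spread behind each p-value is that between mice, with their library preparation. In bulk tissue, fewer cells of a type and less RNA per cell cannot be told apart.

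Values are FPKM, a fragment count divided by transcript length and library size, scaled between libraries. Shank2 itself was at 14.4, 13.8 and 14.9 scaled FPKM in the exon 6-7 wild types and at 6.22, 7.02 and 6.15 in the knockouts of that line. It fell by 1.04 on the log2 scale there (standard error, SE, 0.119, limma adjusted p = 0.0111), a call lost without WT778, WT865 or KO776 (limma adjusted p = 0.0908, 0.11 and 0.103) while the size stayed at -1.04 to -1.02. In the exon 7 line it was at 36, 42.4 and 44.1 in wild types and at 33.2, 43.5 and 44.6 in knockouts, a log2 difference of -0.02, and a value over the whole gene does not check the loss of 1 exon. All 10 hippocampal marker genes were listed, with a summed level of 383 to 441 in every library. Of the 12 libraries, 4 (1 in each group: mice WT778, KO776, WT628 and KO969, called set A) lacked a value for an unnamed gene that the other 8 (set B) listed at 205.4 to 439 scaled FPKM. These libraries stood apart. Where a result rests on them, values by mouse, by set or with a mouse left out are given. In the exon 6-7 line the choroid plexus markers summed to 43.1 to 8644 in wild types, lowest in mouse WT865, and to 6765 to 8443 in knockouts.

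Superoxide arises mainly from respiration and from oxidases. Superoxide dismutases turn it into hydrogen peroxide: Sod1 with copper and zinc in the cytosol and the space between the mitochondrial membranes, Sod2 with manganese in the mitochondrial matrix, and Sod3 with copper and zinc outside cells. Ccs hands copper to Sod1 and helps to form its internal disulfide bond. Peroxiredoxins are abundant thiol peroxidases that reduce hydrogen peroxide, most of them recharged by thioredoxin: Prdx1 and Prdx2 in the cytosol, Prdx3 in mitochondria, Prdx4 in the endoplasmic reticulum, Prdx5 in several compartments, and Prdx6, which has a single active cysteine, in the cytosol and on membranes.

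RefSeq promoter sequences (build GRCm38.p6, 250 bases before to 50 bases after the annotated start) were at hand for 7 of the 10 members. Sod1, Sod2, Prdx1 and Prdx5 are shown because Sod1 and Prdx5 had the highest levels, Sod2 had its higher mean in the opposite line from most members, and Prdx1 holds the most matches to the antioxidant response core. Capitals mark every match, on either strand, to TATAAA (the TATA box), GGGCGG (the GC box) and TGANNNNGC (the core of the antioxidant response element, which Nrf2 binds). The sequences lie, in that order, at chr16:90220512-90220811 on the plus strand, chr17:13007589-13007888 on the plus strand, chr4:116685349-116685648 on the plus strand and chr19:6910057-6910356 on the minus strand, and each is written 5′ to 3′ along its gene.
Sod1: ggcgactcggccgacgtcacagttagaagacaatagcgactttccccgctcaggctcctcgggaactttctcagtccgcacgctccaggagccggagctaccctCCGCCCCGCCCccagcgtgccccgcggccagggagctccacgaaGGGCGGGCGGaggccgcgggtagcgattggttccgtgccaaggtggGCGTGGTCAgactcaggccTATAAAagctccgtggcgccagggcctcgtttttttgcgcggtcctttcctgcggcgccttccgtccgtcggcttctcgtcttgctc
Sod2: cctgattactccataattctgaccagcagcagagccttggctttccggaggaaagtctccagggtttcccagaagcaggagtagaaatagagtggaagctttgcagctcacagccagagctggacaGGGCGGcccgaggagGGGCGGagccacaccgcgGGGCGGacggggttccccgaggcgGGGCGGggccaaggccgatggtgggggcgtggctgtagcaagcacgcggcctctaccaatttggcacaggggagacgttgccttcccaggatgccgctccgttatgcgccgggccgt
Prdx1: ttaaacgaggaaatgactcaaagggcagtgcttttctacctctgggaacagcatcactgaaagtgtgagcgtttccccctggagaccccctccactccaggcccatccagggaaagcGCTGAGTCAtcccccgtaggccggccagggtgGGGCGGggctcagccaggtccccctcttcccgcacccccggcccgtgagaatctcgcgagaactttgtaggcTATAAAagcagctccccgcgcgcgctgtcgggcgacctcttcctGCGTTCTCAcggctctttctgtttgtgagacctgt
Prdx5: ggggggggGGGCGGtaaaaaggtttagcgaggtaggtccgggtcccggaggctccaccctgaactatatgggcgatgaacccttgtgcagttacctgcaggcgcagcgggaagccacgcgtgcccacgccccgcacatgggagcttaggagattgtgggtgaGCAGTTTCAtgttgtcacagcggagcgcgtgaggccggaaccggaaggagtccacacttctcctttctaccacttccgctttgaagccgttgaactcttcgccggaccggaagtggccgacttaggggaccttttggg
All 7 member promoters held at least 1 GC box, 3 held a TATAAA match and 3 held the antioxidant response core. Of all 32851 RefSeq promoters of that length, 35.7% held a GC box, 13.6% a TATAAA match and 41.3% the antioxidant response core. The Sod1 window holds a TATA box just before the start with GC boxes on both strands further up. In the Sod2 window there are 4 GC boxes, all on the gene's own strand, and no TATAAA match. A match says only that the letters are there.

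In the exon 6-7 wild types the levels ran from Sod1 at 609 ± 49 scaled FPKM (mean ± SD, n = 3 here and below) down to Sod3 at 4.03 ± 0.606. FPKM is divided by transcript length, but the values of short and long genes shifted against each other between the lines (below), so the order of genes of unlike length is that of the line it is given for. Behind Sod1 came Prdx5, then Prdx2, and none of these 3 overlapped its neighbour in the order. Prdx1 and Prdx6 overlapped each other at 133 ± 14.1 and 129 ± 4.33, followed by Prdx3 at 41.6 ± 2. Sod2 and Ccs overlapped at 27.9 ± 2.33 and 26.1 ± 1.1, above Prdx4 at 16.6 ± 1.77. The exon 7 wild types kept Sod1, Prdx5 and Prdx2 as the top 3 in that order and Sod3 at the bottom. There Sod2, at 41.6 ± 14.1, stood above Prdx3, at 28.4 ± 6.34, with overlapping values, and Ccs, at 6.52 ± 0.669, overlapped Prdx4, at 7.96 ± 1.28.

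**Figure D1:**
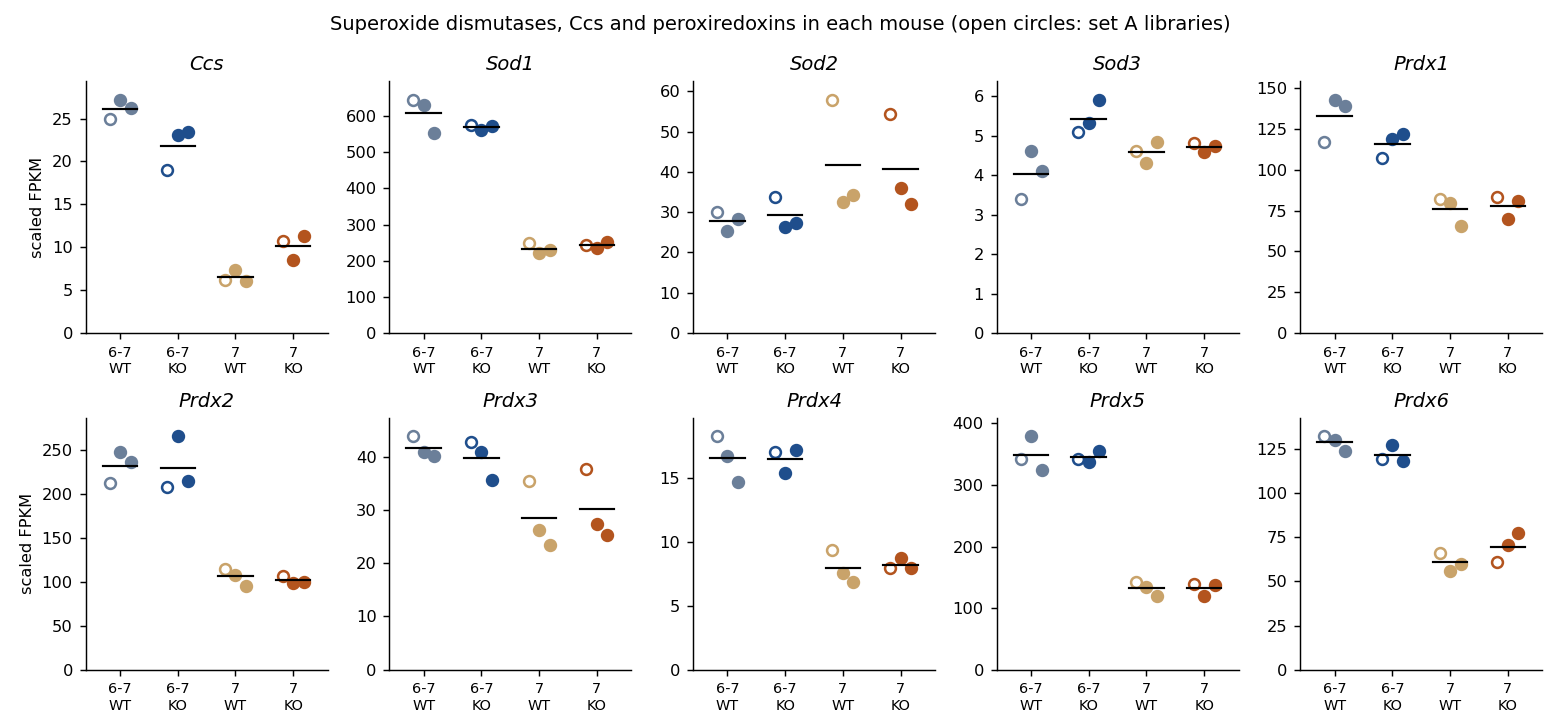
Scaled FPKM (vertical axes, from 0) of each of the 10 members in the 12 mice, by line (6-7 or 7) and genotype (WT, wild type; KO, knockout); bars are means of 3 and open circles are the set A libraries. Sod1, Ccs, Prdx1, Prdx2, Prdx4, Prdx5 and Prdx6 sit lower in every mouse of the exon 7 line than in any of the exon 6-7 line, while the 2 open circles of the exon 7 line stand above its other 4 mice for Sod2 and Prdx3.

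Ccs was at 6.24, 7.29 and 6.04 scaled FPKM in the exon 7 wild types and at 10.7, 8.57 and 11.3 in the exon 7 knockouts. Every knockout mouse was above every wild-type mouse of the line, with means of 10.2 ± 1.43 and 6.52 ± 0.669. The log2 difference was 0.57 (SE 0.118, 95% interval 0.31 to 0.83), which describes the values that chose the gene. Both library sets contribute to it, since the set A pair (WT628 and KO969) and all set B mice keep that order.

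Ccs in the exon 6-7 line was not used in the choice. It was at 25, 27.2 and 26.2 in wild types and at 19, 23.1 and 23.4 in knockouts, lower in every knockout. The log2 difference was -0.25 (SE 0.118, 95% interval -0.51 to 0.00, limma adjusted p = 1), so it did not pass. Without KO776, the lowest library, it was -0.16. Of all genes tested, 6.3% were lower in every knockout of this line than in every wild type, and Ccs was the 1 member among them. The difference between the 2 knockout effects of Ccs, exon 7 minus exon 6-7, was 0.82 (SE 0.167, 95% interval 0.46 to 1.19), and it contains the values that chose the gene.

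Sod1, the enzyme that Ccs supplies, did not follow these differences within the lines. In the exon 7 line it was at 248, 221 and 229 in wild types and at 244, 234 and 252 in knockouts, and the groups overlapped. The log2 difference was 0.06 (95% interval -0.11 to 0.24). In the exon 6-7 line Sod1 was at 645, 629 and 553 in wild types and at 574, 562 and 573 in knockouts, a log2 difference of -0.09 (95% interval -0.27 to 0.08). Ccs as a percent of Sod1 was therefore 2.51, 3.3 and 2.63 in the exon 7 wild types and 4.39, 3.67 and 4.48 in the exon 7 knockouts, which did not overlap. The exon 6-7 wild types were at 3.87, 4.33 and 4.73 and their knockouts at 3.31, 4.11 and 4.09, which did. Since the ratio contains Ccs, the exon 7 values are again a description.

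Sod3, the extracellular dismutase, was the member with the largest difference in the exon 6-7 line. It was at 3.39, 4.6 and 4.1 in wild types and at 5.08, 5.31 and 5.91 in knockouts, higher in every knockout. The log2 difference was 0.36 (SE 0.108, 95% interval 0.12 to 0.59), and with a limma adjusted p = 1 (0.00597 before adjustment over 14212 genes) it did not pass. Of all genes tested, 5.02% were higher in every knockout of this line, and Sod3 was the 1 member among them. The exon 7 line gave 4.6, 4.3 and 4.83 in wild types and 4.81, 4.59 and 4.74 in knockouts, overlapping, with a log2 difference of 0.04 (95% interval -0.20 to 0.27). The difference between the 2 effects, exon 7 minus exon 6-7, was -0.32 and did not pass. All 10 meningeal and fibroblast markers and all 10 choroid plexus markers were above 0 in the same exon 6-7 comparison, with medians of 0.53 and 1.41. The meningeal markers summed to 106 to 185 in the wild types and 170 to 211 in the knockouts. None of either list was at 0 in all libraries. Without WT865, whose choroid plexus sum was lowest, Sod3 differed by 0.37. Without WT778, its lowest mouse, the difference was 0.27, and without WT809 it was 0.44. Leaving out 1 mouse does not separate Sod3 from either marker list. The part of the choroid plexus and meningeal markers in the result was not tested.

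Sod2 and Prdx3, the dismutase and the peroxiredoxin of the mitochondrial matrix, varied together between libraries rather than between genotypes. Sod2 was at 57.9 in the exon 7 mouse WT628 and 54.3 in KO969, against 32.6, 34.3, 35.9 and 32 in the other 4 mice of the line. Prdx3 was at 35.5 and 37.7 in the same pair, against 26.3, 23.4, 27.4 and 25.2. Those 2 mice are the set A libraries of the exon 7 line, 1 of each genotype, and they were the highest 2 for both genes. Not all mitochondrial genes of the lists below did so. Mitochondrial Txn2 was lower in the pair, at 66.8 and 65.1 against 76 to 90 in the others of the line. Mitochondrial Glrx5, at 21.9 and 21.3, lay within the 18.9 to 23.2 of the others. Cytosolic Txn1 was higher, at 29.5 and 30 against 18.4 to 24.5. In a fit with a term for the sets, set A minus set B in the exon 7 line was 0.72 for Sod2 (SE 0.074, limma adjusted p = 0.000125) and 0.50 for Prdx3 (SE 0.0725, limma adjusted p = 0.000726). None of the other 8 members passed that test, which 31.5% of all genes passed. The sets were defined by a gene outside the members. In the exon 6-7 line, where 6.82% of genes passed, none of the 10 did, with 0.24 for Sod2 (limma adjusted p = 0.084) and 0.14 for Prdx3.

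Transcripts encoded by the mitochondrial genome made up 13.64% and 14.29% of the summed FPKM in WT628 and KO969, 10.28 to 10.92% in the other exon 7 mice and 6.22 to 7.39% in the exon 6-7 mice. With the mean of each line subtracted, the log2 level of Sod2 followed this share with r = 0.96 over the 12 libraries, Prdx3 with r = 0.84, and the 2 genes followed each other with r = 0.89. These are descriptions, and the points share their libraries and depth. The r values rest in part on WT628 and KO969 and were not computed without them. For the other members r with the share lay between -0.14 and 0.35. It is not given here for genes outside the members, so how common such values are is left unknown. Between genotypes Sod2 differed by 0.05 in the exon 6-7 line (95% interval -0.43 to 0.54) and by -0.02 in the exon 7 line (-0.50 to 0.47). Prdx3 differed by -0.07 and 0.08 in the same comparisons, and neither gene passed.

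**Figure D2:**
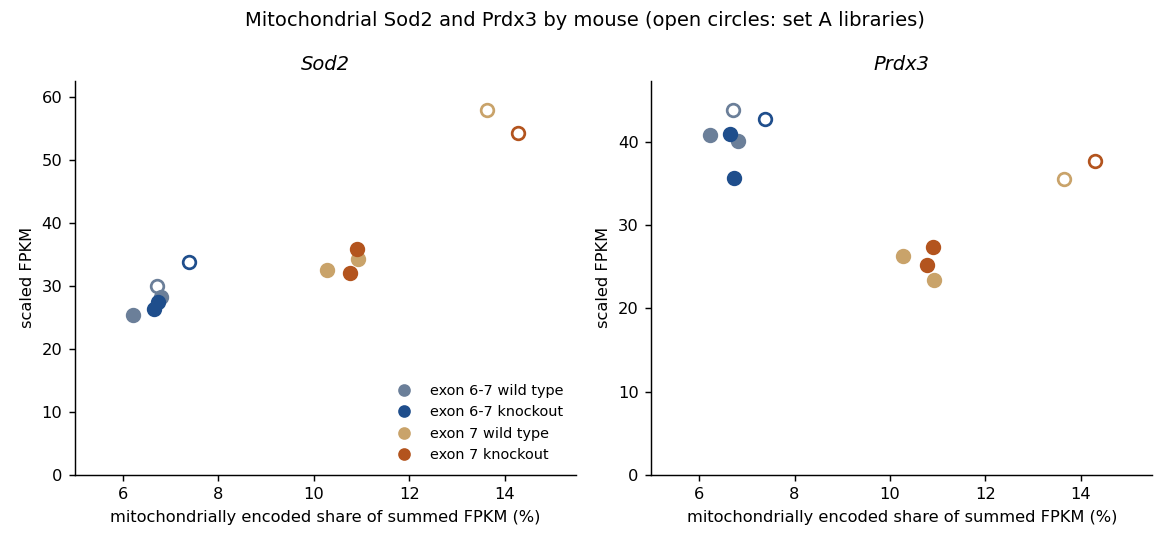
Scaled FPKM of Sod2 and Prdx3 (vertical axes, from 0) against the share of summed FPKM from mitochondrially encoded transcripts (horizontal axes, percent) in the 12 mice, coloured by line and genotype, with the 4 set A libraries as open circles. The exon 7 mice WT628 and KO969, at 13.64% and 14.29%, have Sod2 at 57.9 and 54.3 and Prdx3 at 35.5 and 37.7, above the 4 other mice of their line.

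Prdx1 and Prdx2, the cytosolic peroxiredoxins with a pair of active cysteines, did not pass in either knockout comparison. Prdx1 was at 117, 143 and 139 in the exon 6-7 wild types and at 107, 119 and 122 in the knockouts, overlapping, with a log2 difference of -0.20 (95% interval -0.44 to 0.05). It is read beside the oligodendrocyte markers, all 10 of which were below 0 in that comparison with a median of -0.38. Their sums were 5693 to 7058 in wild types and 4974 to 5103 in knockouts. All 10 microglia markers were below 0 there too, with a median of -0.17. In the exon 7 comparison all 10 oligodendrocyte markers were again below 0 (median -0.08), while Prdx1 was at 0.04. The part of either cell type was not tested. Prdx2 overlapped between genotypes in both lines, with -0.02 in the exon 6-7 comparison and -0.05 in the exon 7 comparison. Prdx4, the secretory pathway member, differed by 0.00 (95% interval -0.25 to 0.25) in the exon 6-7 line and by 0.05 (-0.20 to 0.30) in the exon 7 line. Prdx5 differed by -0.01 (-0.22 to 0.20) in the exon 6-7 line.

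Prdx6 was at 66.1, 56.1 and 59.9 in the exon 7 wild types and at 61.2, 70.6 and 77.1 in the knockouts, which overlapped. The log2 difference was 0.19 (95% interval -0.02 to 0.40), with limma adjusted p = 1. Within set A it was -0.11 (1 mouse of each genotype) and within set B 0.34 (2 of each), so the sets differ in its sign. In the exon 6-7 line it was at 132, 130 and 124 in wild types and at 119, 127 and 118 in knockouts, a log2 difference of -0.08. The difference between the 2 effects was 0.28 and did not pass.

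Across the 10 members, 0 passed the limma test at adjusted p under 0.05 in the exon 6-7 knockout comparison, in which 0.0141% of all genes passed (2 of 14212, and 583 at an unadjusted p under 0.05). Of the 9 members other than Ccs, 0 passed in the exon 7 comparison, in which 0% of all genes passed (492 at an unadjusted p under 0.05). The median log2 difference of these 9 was -0.02 in the first comparison and 0.04 in the second. Over all genes tested it was -0.00 and -0.01. In the exon 7 line 3.27% of all genes were higher in every knockout, and Ccs, through which the group was chosen, was the 1 member among them, while 3.76% were lower in every knockout and 0 members were. None of the 9 passed for the difference between the 2 effects, in which 0.00704% of all genes did. For Sod1, Prdx2, Prdx4 and Prdx5 the 95% intervals in both lines lie within 0.30 of 0 on the log2 scale, so that larger differences lie outside them. For Sod2 they reach 0.54 and were the widest of the 10.

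**Figure D3:**
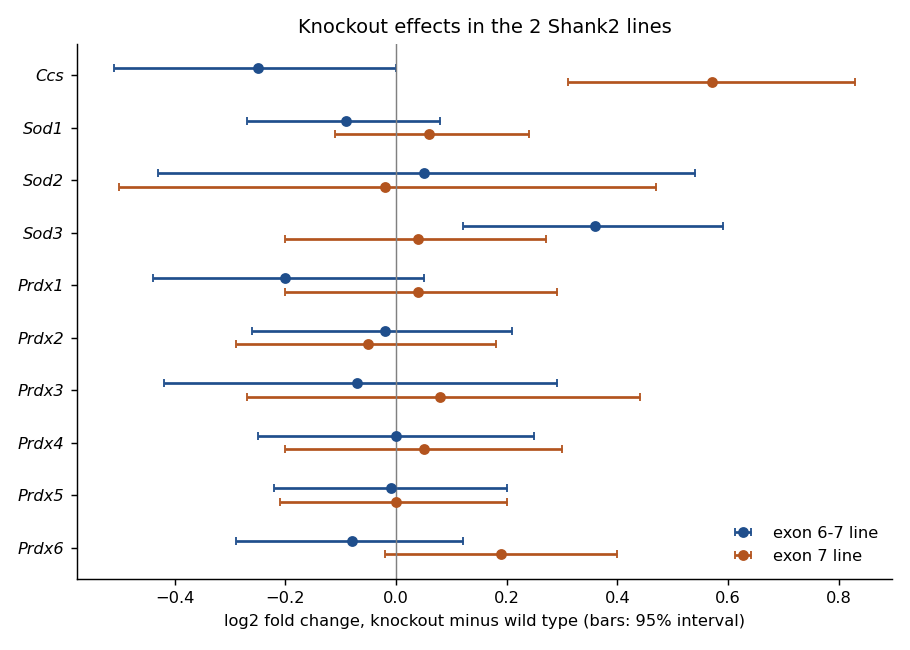
Log2 fold change of each member, knockout minus wild type, in the exon 6-7 line (blue) and the exon 7 line (orange), with 95% intervals from limma over all 12 libraries. Ccs lies at -0.25 and 0.57, Sod3 at 0.36 and 0.04, and the intervals of the other 8 members include 0 in both lines.

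The 2 lines differed far more from each other than knockouts did from wild types. In wild-type mice, 7 of the 9 members other than Ccs were lower in the exon 7 line at limma adjusted p under 0.05, in a comparison in which 33.1% of all genes passed as lower, 34% as higher and 67.1% in either direction. The same number, 7 of 9, were lower in every exon 7 wild type than in every exon 6-7 wild type, against 34.5% of all genes. Sod2 was higher in every exon 7 wild type, as 35.7% of all genes were. No library is a control of both lines and the labels give no batch, so the line and the handling of its libraries cannot be told apart. The median of the 9 was -0.98, against -0.00 over all genes. Ccs went from 26.1 ± 1.1 in the exon 6-7 wild types to 6.52 ± 0.669 in the exon 7 wild types, a log2 difference of -1.85, which shares the exon 7 mice that chose it and gets no test. Sod1 went from 609 ± 49 to 233 ± 14.2 (log2 -1.38, SE 0.0811, limma adjusted p = 6.49e-08).

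Among the peroxiredoxins the line difference in wild types was largest for Prdx5, which went from 342, 379 and 324 to 142, 135 and 120 (log2 -1.39, limma adjusted p = 1.61e-07). Prdx2 differed by -1.12, Prdx6 by -1.07, Prdx4 by -0.98 and Prdx1 by -0.81, and no exon 7 wild type reached any exon 6-7 wild type for these 4. Prdx3 differed by -0.55 (limma adjusted p = 0.00976). Sod3 differed by 0.15 (limma adjusted p = 0.221) and Sod2 by 0.51 (limma adjusted p = 0.0591), and neither passed. The call for Sod2 changed with the libraries used and with the scaling: with a term for library set the difference was 0.35 (limma adjusted p = 0.00209), and without KO969, WT993 or WT999 it was 0.51, 0.66 and 0.62 (limma adjusted p = 0.0296, 0.0319 and 0.0478). Under TPM it was 0.66 and under quantile normalization 0.61 (limma adjusted p = 0.0163 and 0.0381), and Sod3 was 0.30 under TPM (limma adjusted p = 0.0343). Over the fits with 1 mouse left out the Sod2 difference ran from 0.25 to 0.66. Its size leans on WT628 of set A, at 57.9 against 32.6 and 34.3 in the other exon 7 wild types. Sod2 as a percent of Sod1 was 4.61 ± 0.54 in the exon 6-7 wild types and 17.7 ± 4.88 in the exon 7 wild types. Among the latter WT628, of set A, was at 23.3 and the others at 14.8 and 15. That ratio sets the longest member against the shortest: the line difference of Sod2 minus that of Sod1 was 1.89 on the log2 scale, and -0.21 once the length and GC trends described below were removed.

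In knockout mice, which are other animals, 7 of the 9 other than Ccs were lower in the exon 7 line, where 30.3% of all genes passed as lower and 61.8% in either direction, and the median was -0.80. No member was higher in every exon 7 knockout than in every exon 6-7 knockout, which 34.6% of all genes were. Prdx5 differed by -1.38, Sod1 by -1.23, Prdx2 by -1.15, Ccs by -1.03 (again without a test), Prdx4 by -0.93, Prdx6 by -0.80, Prdx1 by -0.57 and Prdx3 by -0.41 (limma adjusted p = 0.0464). The call for Prdx3 was lost in 12 of 22 alternatives, among them leaving out any of 8 mice, with the smallest size over these, -0.30, without KO994 (limma adjusted p = 0.169). Under TPM it was -0.28 (limma adjusted p = 0.149) and with length and GC trends removed -0.20 (limma adjusted p = 0.23). Sod2 differed by 0.44 (limma adjusted p = 0.103) and Sod3 by -0.17 (limma adjusted p = 0.19), and again neither passed, although with a term for library set they were 0.28 and -0.24 (limma adjusted p = 0.00852 and 0.0465). Sod2 was 0.59 under TPM and 0.44 without WT628 (limma adjusted p = 0.0328 and 0.0388). Over the fits with 1 mouse left out it ran from 0.22 to 0.59. Its size leans on KO969 of set A, at 54.3 against 35.9 and 32 in the other exon 7 knockouts. Sod3 was -0.30 for FPKM as deposited and -0.33 under quantile normalization (limma adjusted p = 0.0369 and 0.0212).

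**Figure D4:**
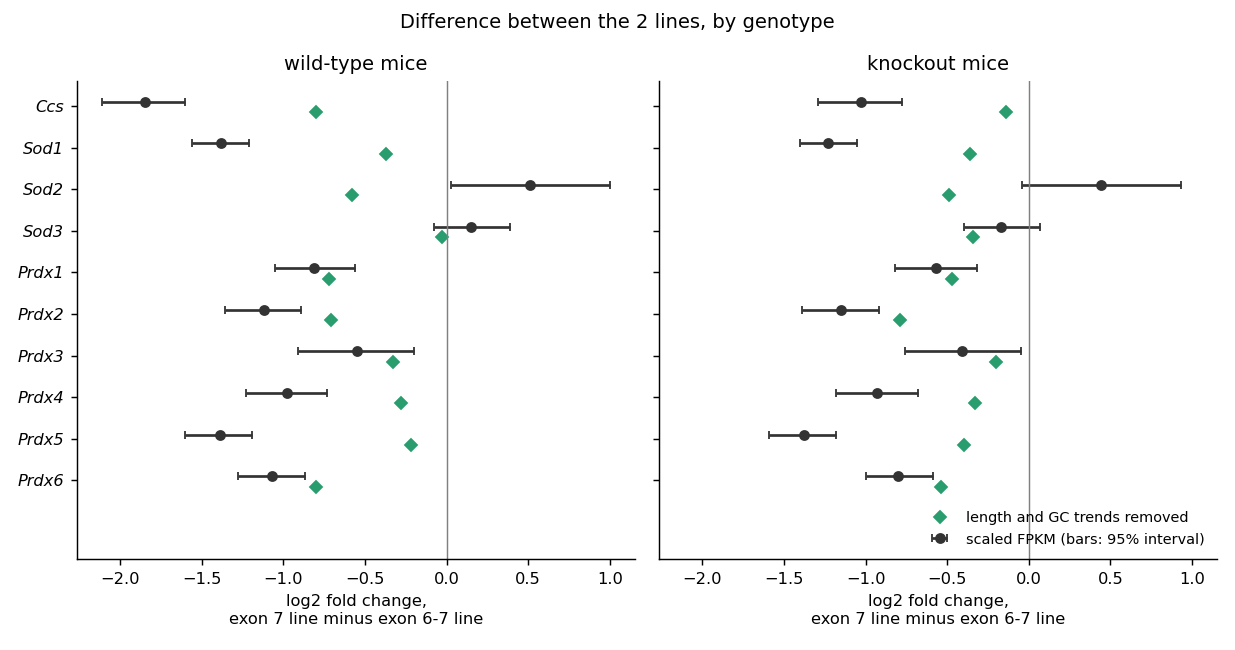
Log2 fold change of each member, exon 7 line minus exon 6-7 line, in wild-type mice (left) and knockout mice (right): circles with 95% intervals from scaled FPKM, and diamonds after trends with transcript length and GC content were removed. Circles for Sod1 lie at -1.38 and -1.23 and its diamonds at -0.37 and -0.36, and those of Sod2 move from 0.51 and 0.44 to -0.58 and -0.49.

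These line differences followed transcript length over all genes, with a Spearman rho of 0.64 in wild types and in knockouts over the 14053 genes with a length, and they followed GC content with -0.43 and -0.41. Genes are not independent replicates, and all share the same libraries. In wild types the median difference was -0.81 in the shortest of 5 equal length classes and 0.81 in the longest. Ccs (927 bases), Sod1 (641), Prdx4 (990) and Prdx5 (755) lie in the shortest class and Prdx1, Prdx2, Prdx3 and Prdx6 in the second. Sod3 (3738 bases) lies in the fourth and Sod2 (5861) in the longest. So Ccs and the 7 members called lower are the 8 with the shortest transcripts.

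With length and GC trends removed from every library, a step added after the data were seen, all 10 members were below 0 in both genotypes. In wild types 6 of the 9 other than Ccs passed as lower, where 23.7% of all genes did, with a median of -0.37, and 0 passed as higher, where 24.4% did. In knockouts 8 of the 9 passed as lower, where 20.5% of all genes did, with a median of -0.40, and 0 passed as higher, where 22% did. Prdx6 and Prdx2 were smaller than before but passed in both genotypes, at -0.80 and -0.71 in wild types and -0.54 and -0.79 in knockouts. Sod3 was at -0.34 in knockouts (limma adjusted p = 0.0177). Prdx4 and Prdx5 no longer passed in wild types, at -0.28 and -0.22 (limma adjusted p = 0.0659 and 0.114), nor did Prdx3 in knockouts, at -0.20. Ccs was at -0.80 in wild types and -0.14 in knockouts. Sod2 turned to -0.58 in wild types (limma adjusted p = 0.00554) and -0.49 in knockouts (limma adjusted p = 0.016). Within the lines the knockout effect of Ccs was -0.14 and 0.52 by the same step, and the effects themselves followed length over all genes with a rho of 0.35 (exon 6-7) and -0.16 (exon 7). With GC content the rho was -0.29 (exon 6-7) and 0.18 (exon 7).

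**Figure D5:**
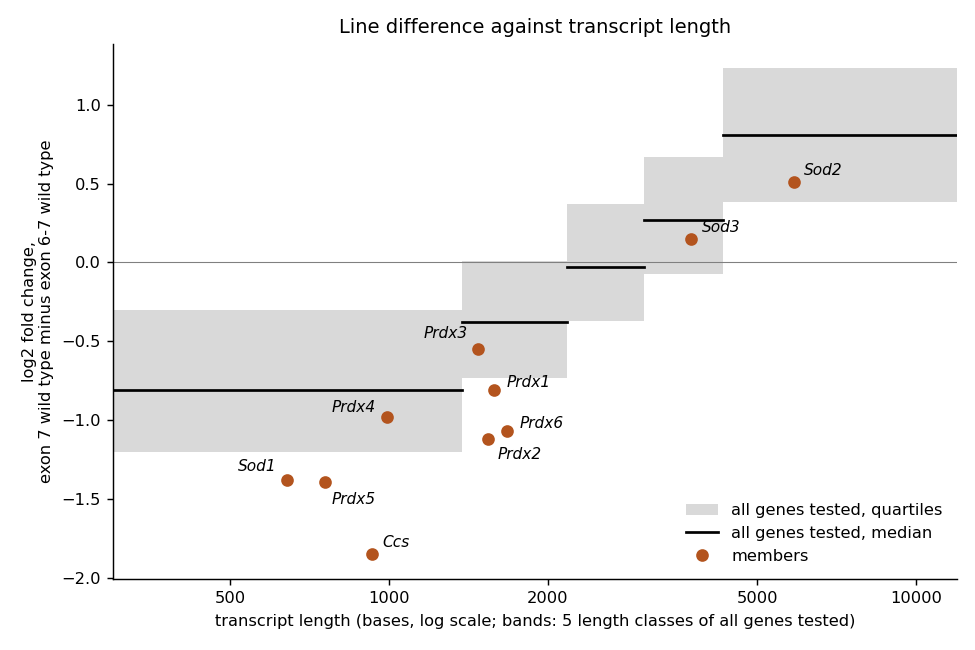
Log2 fold change, exon 7 wild type minus exon 6-7 wild type (vertical axis), against transcript length in bases (horizontal log axis), for the 10 members (circles) over the median (lines) and quartiles (grey) of all genes in each of 5 length classes; lengths beyond the axis are not drawn. The medians go from -0.81 to 0.81, and all 10 members lie below the median of their own class.

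Several members share sequence with other genes, which matters because how reads that fit several places were counted was not found in the labels or headers. Of the 50-base stretches of the Sod1 transcript, 23.1% also occur in Gm8566, which was at 43.4 to 113 scaled FPKM, and Sod1 plus Gm8566 differed by -1.35 between the lines in wild types. Of those of Prdx5, 29.7% occur in Trmt112, an overlapping gene on the opposite strand at 1.17 to 3.2 scaled FPKM. Prdx2 shares 8.96% with Tdpx-ps1 and overlaps Junb and Rnaseh2a on the opposite strand, and Prdx1 shares 7.48% with Gm21399. For Sod1, Prdx1, Prdx2 and Prdx5 the sum with the gene named first differed between the lines in the same direction as the member alone. These other genes were far lower than the members. In the exon 6-7 wild types Trmt112 had a mean of 2.59 against 348 for Prdx5, and Gm8566 107 against 609 for Sod1. The direction of a sum is therefore that of the member and does not show how shared reads were counted. Sod1 also overlaps Scaf4. The long Sod2 transcript shares stretches with many genes, each holding at most 0.826% of them, such as Syt11 at 200 to 260 scaled FPKM. The share over all these genes together was not computed.

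Other genes of peroxide and metal handling were counted in 6 lists. None of their members passed in either knockout comparison. Of the 13 genes of copper transport and copper chaperones tested, 3 were above 0 and 10 below in the exon 6-7 line (median -0.08) and 10 above and 3 below in the exon 7 line (median 0.15). Over all genes tested, 50.6% and 53.3% were below 0 in these comparisons. The knockout effects of all genes followed transcript length with opposite signs in the 2 lines (rho 0.35 and -0.16). The part of length in the counts of the lists was not tested. Mt2, a metallothionein that binds copper and zinc, was at 839, 730 and 627 in the exon 6-7 wild types and at 538, 472 and 436 in the knockouts. The log2 difference was -0.60 (limma adjusted p = 0.856), and in the exon 7 line, at 111, 133 and 114 against 141, 162 and 185, it was 0.44 (limma adjusted p = 1). Mt2 thus was lower in every exon 6-7 knockout, as 6.3% of all genes were, and higher in every exon 7 knockout, as 3.27% were. It did not pass in either. Ccs had the same order, but it was picked from the exon 7 values, and Mt2 is named for the smallest p of its list. The share of all genes with both orders was not computed. Mt3, a neuronal metallothionein family member, differed by -0.33 and 0.16. Slc31a1, the copper importer of the cell surface, was at 10, 13.6 and 6.8 in the exon 6-7 wild types and at 15.9, 15.1 and 14.5 in the knockouts, a log2 difference of 0.58 (limma adjusted p = 1). Its lowest value was in WT865, the mouse with the lowest choroid plexus sum. All 10 choroid plexus markers were above 0 in the same comparison (median 1.41). Their part in the Slc31a1 difference was not tested.

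Gpx8, a peroxidase of the endoplasmic reticulum, was at 9.57, 14.5 and 7.34 in the exon 6-7 wild types and at 16, 16.5 and 14.7 in the knockouts (log2 0.59, limma adjusted p = 1). Like Slc31a1, it was lowest in WT865, and the part of the choroid plexus markers in its difference was not tested. In the exon 7 line Gpx1, the cytosolic glutathione peroxidase, was at 30.5, 35.8 and 33.2 in wild types and at 35.9, 38.4 and 41.5 in knockouts (log2 0.21, limma adjusted p = 1). Of 16 genes of the glutathione list, 5 were above 0 in the exon 6-7 comparison and 12 in that of exon 7, counts in which the part of length was again not tested. The thioredoxin and glutaredoxin list, only some of whose genes act in recharging peroxiredoxins, had medians of -0.01 and -0.00 over 19 genes. The Nrf2 list had medians of -0.03 and -0.00 over 20 genes. Only 5 of the 12 genes of superoxide and peroxide sources passed the filter on low values, and the iron and manganese list had medians of 0.01 and 0.00 over 9 genes.

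Between the lines in wild types, where 33.1% of all genes passed as lower and 34% as higher, 13 of the 16 glutathione genes were lower in the exon 7 line and 2 higher. Among them Gstp1, a glutathione transferase, differed by -1.43 (limma adjusted p = 6.06e-08). In the thioredoxin list 10 of 19 were lower and 2 higher. Its Glrx5, a mitochondrial glutaredoxin of iron-sulfur cluster assembly, went from 93.6, 79.4 and 61.9 to 21.9, 18.9 and 20, whereas Sesn3, a sestrin, went from 3.41, 3.9 and 5.75 to 18.5, 19.4 and 18.2. In the copper list 9 of 13 were lower and 1 was higher, which was Atp7a, a copper-exporting ATPase, at 0.333, 0.0984 and 0.414 in the exon 6-7 wild types and 4.4, 3.94 and 3.58 in the exon 7 wild types (log2 1.96, limma adjusted p = 4.87e-07). In the Nrf2 list 10 of 20 were lower and 5 higher, in the list of sources 2 of 5 were lower, and in the iron and manganese list 4 of 9 were higher and 1 lower. The shares of the Nrf2, source and iron lists lie nearer to those of all genes than the share of the glutathione list does. In this comparison 69% of the shortest length class passed as lower, 51.7% of the second and 4.02% of the longest. The lists were not set against genes of like length, so the part of length in their counts was not tested.

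The genes whose levels were most like those of Ccs over the 12 libraries, by Pearson's r of log2 levels with the mean of each line subtracted, were Faah (0.915), Iqcb1 (0.863) and Parn (0.863), with 2 clone names. Faah, which breaks down the endocannabinoid anandamide, was at 50.7, 51.1 and 50.6 in the exon 7 wild types and at 57.5, 53.4 and 56.9 in the knockouts. Without the subtraction they were Iqcb1 (0.985), Lhpp (0.984), Trnau1ap (0.984) and Dgat2 (0.983), with 1 clone name. Iqcb1, a protein of primary cilia, was at 10.2, 12 and 11.6 in the exon 7 wild types and at 14.5, 14.7 and 15.9 in the knockouts. Among the members, the likeness with the line means subtracted was highest for Prdx1 (0.57) and Prdx6 (0.53) and was 0.40 for Sod1. The genes share the mice that chose Ccs, so these values describe likeness only.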

How the data were processed

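Poly(A) RNA of hippocampi from 12 mice, 3 per group, was sequenced. The authors deposited 1 table of FPKM values per mouse, per the file headers, with Ensembl release 74 gene identifiers. Build mm10 and the tools Cufflinks, GSNAP and CASAVA appear in the submitters' processing notes, without roles. Read totals are unknown, so no counting error is attached. How strand and reads with several matches were handled is not given in the sources used.

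Unlisted genes were set to 0. Scaling between libraries used the median of ratios over 12511 genes with at least 1 FPKM in all 12 (factors 0.919 to 1.07). Small RNAs (110 genes, by GENCODE M21) and genes with a mean under 1 FPKM were left out, which left 14212. Symbols matched for 24077 of 24590 identifiers. No library repeated another. The test was limma 3.58.1 (limma-trend, R 4.3.3) on log2(scaled FPKM + 1), which understates changes of low genes, with 4 group means, 8 residual degrees of freedom and Benjamini-Hochberg adjustment over all genes tested (threshold 0.05, two-sided). The fit was tested on simulated data. For the added length and GC step, smooth trends were taken from each library, with lengths from GENCODE M21. Other tables were made with Python 3.11.15.

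The members, gene lists and alternatives were chosen with earlier results of these data known. Text names all 10 members, Shank2, up to 3 genes of each list with the smallest p in a comparison, and the 5 genes most like Ccs on each of 2 scales, clone names counted only. Gm8566 and the other genes that share sequence with members, and the rest of the copy sums, were added once values had been seen. Txn2 was added in the same way. The alternatives comprised pseudocounts 0.1 and 5, filters of 0 and 5 FPKM, unscaled FPKM, quantile normalization, TPM, a term for library set, robust empirical Bayes, each line alone, each mouse left out, and the length and GC step.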

Additional observations from a re-analysis of the deposited data

Results flagged for a closer look

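The knockout effect of Ccs, the copper chaperone of Sod1, had opposite signs in the 2 lines: all 3 exon 7 knockouts were above all 3 exon 7 wild types, and all 3 exon 6-7 knockouts were below all 3 exon 6-7 wild types. The difference of the effects, exon 7 minus exon 6-7, was 0.82 on the log2 scale. This difference was not tested, because Ccs was picked from the exon 7 values. With length and GC trends removed it was 0.65.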

How the results depend on the processing

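Of the 9 members other than Ccs, 0 passed in either knockout comparison in any setting run. Between the lines 6 to 7 passed as lower and 0 to 2 as higher in wild types, and 6 to 8 and 0 to 1 in knockouts, over 22 alternatives. Genes called for the exon 6-7 knockout effect (2) came to 5 with no filter and to 1 to 6 with a mouse left out. For the exon 7 effect (0) there was 1 with a pseudocount of 0.1 and 1 with no filter, and 0 to 2 with a mouse left out. For the difference of effects (1) there were 2 with a pseudocount of 0.1, 3 with a term for library set, 2 with length and GC trends removed, and 1 to 3 with a mouse left out. Small exon 6-7 effects changed sign: under quantile normalization Sod1 was 0.01, Prdx2 0.07, Prdx5 0.07 and Prdx6 0.01. Under TPM Prdx2 was 0.03 and Prdx5 0.05, and with length and GC trends removed Sod1 was 0.01, Sod2 -0.05, Prdx2 0.01 and Prdx5 0.11. In the exon 7 effect Sod2 and Shank2 were each 0.03 under TPM, and 0.03 and 0.01 with the trends removed. Between the lines in wild types Sod3 was -0.03 under quantile normalization and also with the trends removed, where Sod2 was -0.58 (and -0.49 in knockouts). Leaving out a mouse gave exon 6-7 effects of -0.05 to 0.12 for Sod2, -0.13 to 0.04 for Prdx2, -0.12 to 0.01 for Prdx3 and -0.06 to 0.05 for Prdx5. It gave exon 7 effects of -0.24 to 0.24 for Sod2, -0.05 to 0.12 for Prdx1, -0.09 to 0.25 for Prdx3, -0.04 to 0.16 for Prdx4 and -0.11 to 0.11 for Shank2. The causes were not tested. The median of all genes between the lines in wild types was 0.13 under TPM and -0.14 for FPKM as deposited, against -0.00. No paired analysis was possible because each mouse number occurs once.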
